A study of Mus musculus with 12 samples.

Results

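3 tRNA-Arg genes of mouse liver are described here. Each carried a heavy load of RNA polymerase III (Pol III) and lay within 450 bp of the start of a protein-coding gene. One reads the anticodon ACG and lies beside Sacm1l, another reads ACG and lies beside Prmt5, and the last reads TCG and lies beside Polg. They make up 3 of the 442 regions over which coverage was deposited, counting stretches of genome less than 1000 bp apart as 1 region. The genes were chosen by position, by their Pol III coverage and by coverage in the libraries titled H3K4, which was present at the genes by Sacm1l and Polg and slight at the gene by Prmt5. Those values are therefore given as a description, without a test. Of 23 predicted tRNA-Arg genes, these 3 were the only ones within 450 bp of a coding start. The gene by Sacm1l, at 421 bp, was the farthest of the 3. Just outside lay a tRNA-Arg (ACG) gene on chromosome 3 at 682 bp, whose stretch had a mean Pol III coverage of 66.5, and a tRNA-Arg (CCT) gene on chromosome 6 at 856 bp, with 128.7.

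Liver chromatin was prepared from male mice of the C57/BL6 strain, 12 to 14 weeks old, that had access to food only from 12 to 24 h after lights on for 7 days. No group was treated or carried a mutation. The labels give 5 mice collected 2 h after lights on and 5 collected at 26 h as biological replicate, without saying which replicate number belongs to which time or whether mice were pooled. Chromatin immunoprecipitation with sequencing gave 12 libraries in 6 groups of n = 2. RPC1 and RPC4 belong to Pol III and RPB2 to RNA polymerase II (Pol II), a further pair of groups was titled H3K4 and H3K36, and input is chromatin that was not precipitated. For the histone libraries title and antibody field contradict each other: H3K36me3 is entered as the antibody where the title says H3K4, and H3K4me3 where it says H3K36. They are therefore called by their titles. Summed over all regions, libraries of Pol III held 82276 to 160705 reads of 76 bp, RPB2 14779 and 13848, H3K4-titled 17033 and 26665, H3K36-titled 1754 and 1273, and input 3563 and 3365. None of 7 liver or common genes considered had a stretch within 1000 bp of its start, so the tissue label could not be checked from the coverage.

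tRNAs carry amino acids to the ribosome, and their genes are transcribed by Pol III. The promoter of a tRNA gene lies inside the gene, in an A box and a B box that bind the transcription factor TFIIIC. TFIIIC then places TFIIIB upstream of the gene, TFIIIB recruits the polymerase, and a run of T on the coding strand ends transcription. RPC1 is the largest, catalytic subunit of Pol III, and RPC4 belongs to a subcomplex with a known role in termination and reinitiation. Pol II transcribes protein-coding genes. Trimethylated lysine 4 of histone H3 is known as a mark of active promoters and trimethylated lysine 36 as a mark of transcribed gene bodies.

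The gene by Sacm1l lies on chromosome 9 at chr9:123438543-123438615 of the mm9 build on the minus strand. The gene by Prmt5 lies on chromosome 14 at chr14:55136533-55136605 on the plus strand, and the gene by Polg on chromosome 7 at chr7:86611305-86611377 on the plus strand. Each is 73 bp long, intergenic in the GENCODE vM1 annotation, and was placed by a cloverleaf search and not by an annotation. The stretches around them run 150 bp to either side of the gene. All 3 tRNA genes point away from their coding neighbour, so that the 5′ side of the tRNA gene faces the coding start. The coding start lies 385 bp from the near end of the tRNA gene at Sacm1l (a phosphatase of phosphoinositides), 171 bp at Prmt5 (an arginine methyltransferase) and 57 bp at Polg (the catalytic subunit of the mitochondrial DNA polymerase). The Polg stretch covers 94 bp of the 5′ exon of Polg, which is untranslated there, and the other stretches overlap no annotated exon.

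The gene sequences are shown because the promoter elements lie within them. They are written 5′ to 3′ from the mm9 genome, with the A box (from base 8) and the B box (from base 52) in capitals.
tRNA-Arg (ACG) by Sacm1l: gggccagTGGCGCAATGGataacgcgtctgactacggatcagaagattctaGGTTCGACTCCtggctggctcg
tRNA-Arg (ACG) by Prmt5: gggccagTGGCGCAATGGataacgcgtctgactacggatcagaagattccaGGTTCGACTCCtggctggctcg
tRNA-Arg (TCG) by Polg: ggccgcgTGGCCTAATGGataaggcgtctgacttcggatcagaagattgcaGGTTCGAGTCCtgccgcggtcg
The 2 ACG genes share 72 of 73 bases, and the single difference, T50C counted from the first base of the gene by Sacm1l, lies outside both boxes. The TCG gene shares 59 bases with the gene by Sacm1l and 60 with the gene by Prmt5. An exact match to the A box consensus on the gene's own strand was found in 286 of 402 predicted tRNA genes (71.1%), and one to the B box consensus, with any base allowed at its base 8, in 159 of 402 (39.6%). Each box is therefore found in many tRNA genes, and genes with both were not counted.

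The bases after the genes differ more. They are shown from the first base after the gene up to and just past the first run of 4 or more T, which stands in capitals.
3′ flank by Sacm1l: acgtgtgcgatcTTTTTcct
3′ flank by Prmt5: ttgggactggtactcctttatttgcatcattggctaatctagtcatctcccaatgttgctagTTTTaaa
3′ flank by Polg: acttgtatgttgTTTTTatc
The run begins 13 bp after the gene by Sacm1l and 13 bp after the gene by Polg, and is 5 T long in both. By Prmt5 the first run of 4 T begins 63 bp after the gene. Over all 402 predicted tRNA genes the first TTTT lay within 25 bp in 82.3% and beyond 50 bp in 17 genes (4.23%), so the flank by Prmt5 is of an uncommon kind. The 56 bases between the Polg start and its tRNA gene, on the strand of the tRNA gene, are the shortest such spacer of the 3.
spacer by Polg: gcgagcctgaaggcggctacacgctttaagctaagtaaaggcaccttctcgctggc
In the RefSeq promoter table (GRCm38.p6, 250 bases before to 50 after each start) the Polg window contains the whole tRNA gene, from -218 to -146, and the Prmt5 window contains its first 25 bases, from -250 to -226. The Sacm1l window contains none of it. RefSeq thus starts Polg and Prmt5 farther from the tRNA genes than GENCODE vM1, from which the distances given above were taken, so those distances depend on the annotation. Searched on both strands, TATAAA occurred in none of the 3 windows (13.6% of all 32851), CCAAT in all 3 (37.4% of all), and GGGCGG in the Polg window alone (35.7% of all).

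Pol III coverage, in reads per base averaged over a stretch, was among the highest of the series at all 3 genes. It is a mean over all cells of the liver, in which the share of cells loaded and the load per cell cannot be told apart. By Sacm1l it was 223.9 and 166.8 in the RPC1 libraries and 270.0 and 288.7 in the RPC4 libraries, a mean of 237.4 ± 54.3 (SD, n = 4). By Polg it was 232.2 and 161.4 with RPC1 and 255.6 and 250.7 with RPC4, a mean of 224.9 ± 43.6 (SD, n = 4). By Prmt5 it was 163.2 and 122.2 with RPC1 and 217.1 and 241.8 with RPC4, a mean of 186.1 ± 53.8 (SD, n = 4). RPC1 replicate 2 was the lowest library at each gene, and both RPC4 libraries lay above both RPC1 libraries on this unscaled measure. By mean Pol III coverage the genes ranked 1, 7 and 10 of 442 regions in the order Sacm1l, Polg, Prmt5, where the median region had 9.26. Within a library the gene by Sacm1l had 1.19 to 1.37 times the coverage of the gene by Prmt5 and 0.964 to 1.15 times that of the gene by Polg. These ratios describe a measure by which the genes were chosen.

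The input libraries give the background at the same places. Input coverage was 1.63 and 1.63 by Sacm1l, 0.480 and 1.45 by Prmt5, and 1.17 and 0.247 by Polg. Both input values by Sacm1l lay above those at the other two genes, whose values overlap, and all lie far below the Pol III values.

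**Figure D1:**
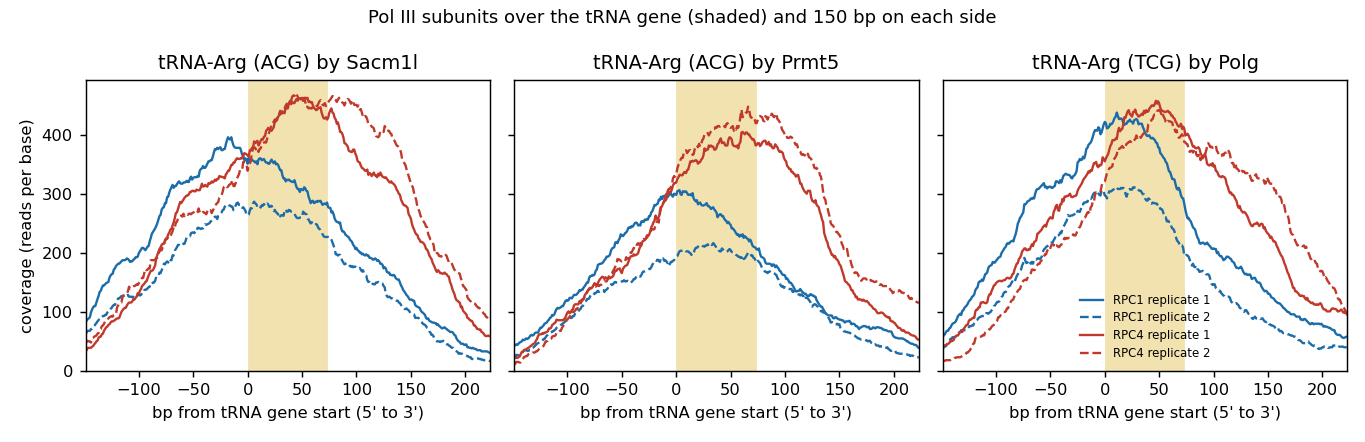
Per-base coverage (reads per base) of the RPC1 (blue) and RPC4 (red) libraries against distance in bp from the start of each tRNA gene, read 5′ to 3′, with the gene shaded; solid lines are replicate 1 and dashed lines replicate 2. The RPC1 curves reach their summit between 18 bp before and 34 bp after the gene start, and the RPC4 curves between 44 and 66 bp after it.

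The 2 Pol III subunits had different profiles along each gene. By Sacm1l the RPC1 summits lay at -18 and 6 bp from the gene start and the RPC4 summits at 50 and 44 bp. By Prmt5 they lay at 3 and 34 bp for RPC1 and at 61 and 66 bp for RPC4, and by Polg at 11 and 9 bp for RPC1 and at 47 and 49 bp for RPC4. At every gene both RPC4 summits lay 3′ of both RPC1 summits. As a measure of lean, the log2 ratio of reads in the 150 bp after the gene to those in the 150 bp before it (with 1 read added to each) was taken in every library. For RPC1 it was -1.005 and -0.84 by Sacm1l, -0.70 and -0.41 by Prmt5, and -0.81 and -0.90 by Polg. For RPC4 it was 0.21 and 0.55, 0.51 and 0.87, and 0.19 and 0.93 at the same genes, so RPC1 leaned to the 5′ side and RPC4 to the 3′ side in every library.

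The difference in lean between RPC1 and RPC4 was a log2 value of -1.30 (SE 0.53) by Sacm1l, -1.24 (SE 0.53) by Prmt5 and -1.42 (SE 0.58) by Polg, with negative values meaning that RPC1 lay more to the 5′ side. In the limma fit over all 12 libraries the adjusted p was 0.145, 0.166 and 0.148, and 0 of 395 stretches were called (0%), although 105 had an unadjusted p under 0.05. That fit pools its estimate of spread with the shallow input and histone libraries. A limma fit of the RPC1 and RPC4 libraries alone left only 2 residual degrees of freedom. There the same values had adjusted p of 0.0363, 0.0406 and 0.0363, and 138 of 395 stretches (34.9%) were called. The direction is common to tRNA genes: among 242 stretches with a single predicted tRNA gene RPC1 lay more to the 5′ side in 228 (94.2%), at a median of -0.98. The 3 genes ranked 52, 62 and 43 of 242 from the most 5′.

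Just past the gene end RPC4 kept more of its coverage than RPC1. In the first 50 bp after the gene by Sacm1l, RPC1 coverage was 67.5% and 66.9% of its mean over the gene, and RPC4 coverage 86.9% and 102.6%. By Prmt5, where the run of T comes late, RPC1 stood at 61.4% and 73.3% and RPC4 at 94.9% and 100.5%. By Polg RPC1 stood at 54.7% and 53.6% and RPC4 at 81.2% and 92.6%. From 101 to 150 bp after the gene by Sacm1l, RPC1 stood at 15.5% and 11.6% and RPC4 at 25.5% and 33.8%. By Polg RPC1 stood at 19.6% and 15.6% there and RPC4 at 26.4% and 41.9%. By Prmt5 the subunits overlapped in that window, with RPC1 at 23.1% and 17.4% and RPC4 at 22.5% and 34.3%. The values by Prmt5 lay within or near those at the other two genes, whose run of T comes earlier, at the resolution that 76 bp reads from fragments of about 250 bp (adaptors included) allow.

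The amount of RPC1 against RPC4, after each library was divided by its own background, gave no call at the 3 genes. As background served the trimmed mean of those 25% of regions where Pol III coverage was lowest. The log2 difference was -0.13 (SE 0.49, 95% interval -1.20 to 0.95) by Sacm1l, -0.29 (SE 0.49, -1.36 to 0.77) by Prmt5 and 0.02 (SE 0.76, -1.64 to 1.67) by Polg, with limma adjusted p of 0.969, 0.969 and 0.990. None of 397 regions was called (0%) and 4 had an unadjusted p under 0.05. A fit of the contrast's libraries alone called 5 regions. Each interval spans both directions.

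Pol II signal was highest by Sacm1l. The genes were not chosen by that signal, though nearness to a coding start was part of the choice. RPB2 coverage by Sacm1l was 56.6 and 44.2 reads per base, a mean of 50.4 ± 8.82 (SD, n = 2), which ranked 5 of 442 regions. By Polg it was 8.07 and 10.6, a mean of 9.34 ± 1.80 (SD, n = 2, rank 44). By Prmt5 it was 9.90 and 7.22, a mean of 8.56 ± 1.89 (SD, n = 2, rank 48). Both libraries were thus several-fold higher by Sacm1l than at either other gene, while the values by Polg and Prmt5 overlap. The ratio of Sacm1l to Prmt5 was 5.72 (exact 95% counting interval 4.18 to 7.85) in replicate 1 and 6.12 (4.32 to 9.13) in replicate 2. Such intervals leave out spread between libraries. They also treat reads as independent, which PCR copies are not, so they may be too narrow even for counting error. The ratio of Sacm1l to Polg was 7.02 (4.98 to 9.94) and 4.16 (3.07 to 5.76), whereas that of Polg to Prmt5 was 0.815 (0.524 to 1.27) and 1.47 (0.95 to 2.35). All input values at these genes lay below the lowest RPB2 value.

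On the log2 scale of coverage in units of each library's background plus a pseudocount of 0.354, RPB2 exceeded input by 5.12 (SE 0.49) by Sacm1l, 3.80 (SE 0.76) by Polg and 3.33 (SE 0.49) by Prmt5. The limma adjusted p over all regions was 5.24e-06, 0.00119 and 0.000125. All 3 were called higher, as were 160 of 397 regions (40.3%; either direction 40.6%), and the median region differed by 0.95. With libraries divided by their file totals, which moves the median region to -1.18 and the calls to 30 higher and 124 lower, the value by Sacm1l was 2.95 (adjusted p = 0.0208). The values by Polg (2.08, adjusted p = 0.326) and by Prmt5 (1.34, adjusted p = 0.162) were then not called. With median-of-ratios scaling (median region -0.28, 40 higher and 9 lower) the value by Sacm1l was 3.85 (adjusted p = 0.0238), by Polg 2.94 (adjusted p = 0.260) and by Prmt5 2.22 (adjusted p = 0.101). The call by Sacm1l thus held under each scaling tried, and those at the other genes depended on it.

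**Figure D2:**
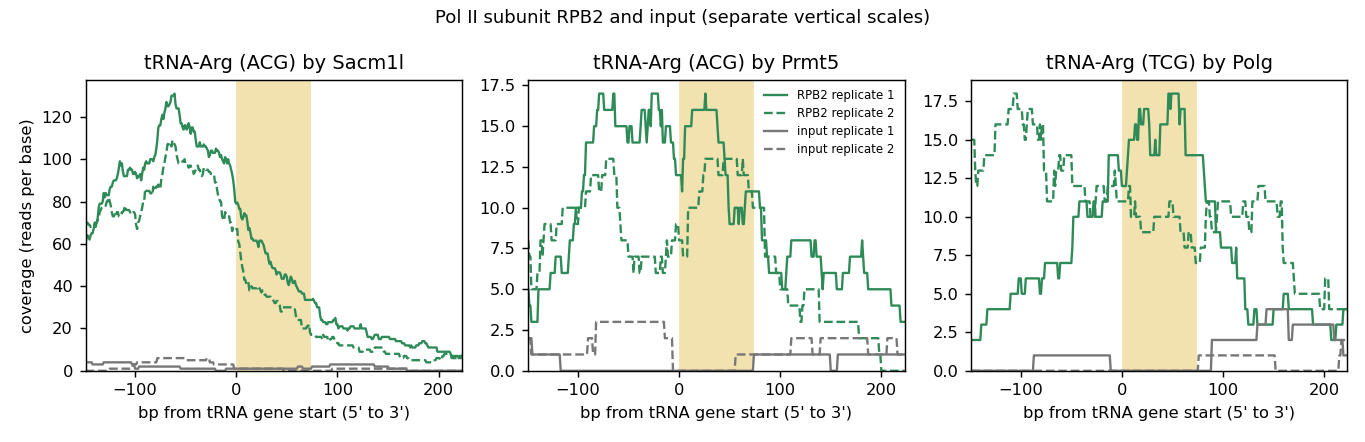
Per-base coverage (reads per base, a separate vertical scale for each gene) of RPB2 (green) and input (grey) against distance in bp from the start of the tRNA gene, with the gene shaded and the coding start lying beyond the left edge by Sacm1l and Prmt5 and 57 bp before the tRNA gene by Polg. By Sacm1l both RPB2 replicates peak 61 and 63 bp before the tRNA gene; by Prmt5 and Polg coverage stays at or below 18.

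RPB2 by Sacm1l was concentrated on the side of the tRNA gene that faces the coding start. In the 150 bp before the gene RPB2 averaged 99.2 and 83.8 reads per base, against 52.2 and 34.2 over the gene and 16.3 and 9.34 in the 150 bp after it. The summits stood at -61 and -63 bp, with 131 and 109 reads. Coverage fell across the tRNA gene in both replicates, while RPC1 and RPC4 peaked on or beside it. By Prmt5 RPB2 had 11.8 and 8.74 before the gene, 13.2 and 11.4 over it and 6.36 and 3.65 after it, without a single clear summit. By Polg the replicates differed, with a summit at 46 bp in replicate 1 and at -107 bp in replicate 2, each of 18 reads.

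The log2 lean of RPB2 from the 5′ to the 3′ side was -2.57 and -3.10 by Sacm1l, -0.84 and -1.15 by Prmt5, and -0.38 and -0.73 by Polg. Relative to Pol III (the mean of RPC1 and RPC4) the difference in lean of RPB2 was a log2 value of -2.57 by Sacm1l (SE 0.44, limma adjusted p = 0.00373). Over all stretches tested 30 of 311 were called in either direction (9.65%), and the difference by Sacm1l ranked 4 of 177 single tRNA genes from the most 5′. Without RPB2 replicate 2 its size was 2.30 in the same direction with adjusted p = 0.0691, and without each other library of the contrast it stayed called. By Prmt5 the difference was -1.07 (SE 0.44, adjusted p = 0.197) and by Polg -0.41 (SE 0.49, adjusted p = 0.717), both toward the 5′ side and neither called. Among the 177 single tRNA genes 110 (62.1%) had RPB2 more to the 5′ side, so the lean by Prmt5 and Polg was in the commoner direction.

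**Figure D3:**
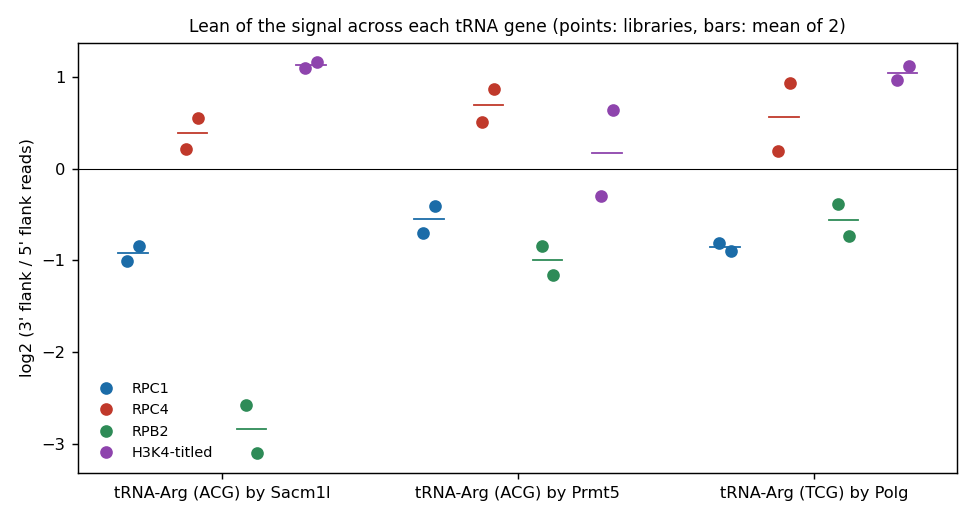
Lean of the signal at each gene, as log2 of reads in the 150 bp after the tRNA gene over reads in the 150 bp before it, for RPC1, RPC4, RPB2 and H3K4-titled libraries; points are single libraries and bars the mean of n = 2. RPC1 points lie below 0 and RPC4 points above 0 at all 3 genes, and RPB2 by Sacm1l lies lowest, at -2.57 and -3.10.

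The H3K4-titled signal was highest by Sacm1l and lowest by Prmt5. By Sacm1l it was 12.3 and 20.4 reads per base, a mean of 16.3 ± 5.74 (SD, n = 2, rank 41 of 442), and by Polg 4.53 and 8.31, a mean of 6.42 ± 2.68 (SD, n = 2, rank 93). By Prmt5 it was 1.15 and 0.724, a mean of 0.937 ± 0.301 (SD, n = 2, rank 218), which overlaps the input values there. Expressed in units of each library's own background, the coverage was 186.5 and 188.4 by Sacm1l, 68.7 and 76.8 by Polg, and 17.5 and 6.68 by Prmt5. The background of these libraries was low (0.0659 and 0.108 reads per base), so the last 2 values rest on 5.64 and 3.55 reads. The ratio of Sacm1l to Polg was 2.72 and 2.45, and that of Polg to Prmt5 was 3.93 and 11.5. These ratios describe what the choice of genes already used.

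Along the genes, which the choice did not use, H3K4-titled coverage rose from the 5′ to the 3′ side of the tRNA gene by Sacm1l and Polg. The coding start lies outside the stretch by Sacm1l and inside it by Polg, where coverage did not rise on the far side of that start. By Sacm1l it went from 7.75 and 12.7 on the 5′ side of the tRNA gene, through 11.6 and 18.5 over it, to 17.2 and 29.0 on the 3′ side. By Polg it went from 2.77 and 5.03, through 5.36 and 8.48, to 5.87 and 11.5. The log2 lean was 1.10 and 1.16 by Sacm1l and 0.96 and 1.12 by Polg, opposite in sign to that of RPB2 in the same stretches. Input leaned the other way by Sacm1l (-0.42 and -1.89). By Polg input leaned the same way (1.52 and 1.14), on only 5.72 and 1.21 reads over the stretch. By Prmt5 the H3K4-titled lean was -0.30 and 0.64, with few reads on either side. The H3K4-titled lean was not tested or set against that of other stretches. In the last 50 bp of the stretch by Sacm1l the coverage was 172.5% and 212.9% of that over the tRNA gene, and by Polg 161.3% and 166.3%, so the signal was still high where the deposited stretch ends.

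H3K36-titled coverage was near the limit of detection at all 3 genes. It was 0.0563 and 0.408 by Sacm1l, 0.0670 and 0.204 by Prmt5, and 0 and 0.633 by Polg, where 0 reads allow a coverage of up to 0.611 (3 reads). Against input the log2 difference was -1.15 (95% interval -2.22 to -0.07, adjusted p = 0.162) by Sacm1l, -0.74 (-1.80 to 0.32, adjusted p = 0.394) by Prmt5 and -0.10 (-1.75 to 1.55, adjusted p = 0.941) by Polg in the limma fit. None of the 3 was called, against 50 of 397 regions (12.6%). With coverage as deposited the values by Sacm1l (-2.36, adjusted p = 0.000435) and Prmt5 (-1.83, adjusted p = 0.00202) were called lower, with 276 of 397 regions. Without H3K36-titled replicate 2 the value by Sacm1l was -2.05 (adjusted p = 0.000644).

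**Figure D4:**
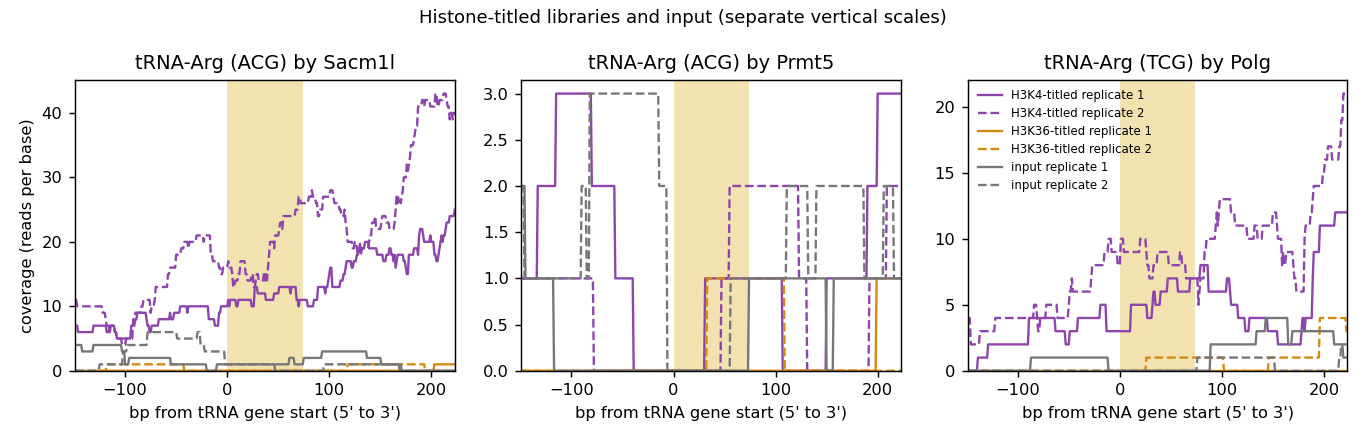
Per-base coverage (reads per base, a separate vertical scale for each gene) of H3K4-titled (purple), H3K36-titled (orange) and input (grey) libraries against distance in bp from the start of the tRNA gene, with the gene shaded. H3K4-titled coverage rises toward the right, the 3′ side of the tRNA gene, by Sacm1l (to 25 and 43) and Polg (to 12 and 21), and does not exceed 3 by Prmt5.

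Identical gene sequences elsewhere in the genome carried less Pol III. The genes by Sacm1l and Prmt5 were chosen for high Pol III coverage, so this difference is given as a description, without a test. The gene by Sacm1l has 1 identical copy, on chromosome 13 (stretch chr13:22112863-22113235, 11439 bp from the start of Prss16). Pol III coverage there was 53.1, 42.6, 76.4 and 89.5 in the RPC1 and RPC4 libraries, a mean of 65.4 ± 21.4 (SD, n = 4), below every one of the 4 values by Sacm1l. RPB2 was 1.97 and 0.496 and H3K4-titled coverage 1.11 and 4.80 at that copy. The gene by Prmt5 has 2 identical copies on chromosome 13. One (chr13:23538511-23538883, 19047 bp from the start of Btn1a1) had Pol III coverage of 20.0, 18.4, 41.2 and 48.6, a mean of 32.1 ± 15.1 (SD, n = 4). The other (chr13:23592241-23592613, 11701 bp from the start of Btn2a2) had 0.627, 0.408, 1.02 and 1.00, a mean of 0.763 ± 0.298 (SD, n = 4), which is in the range of input coverage at the genes described. Input coverage at that copy itself was 0.391 and 0.408, in libraries not scaled for depth. The gene sequence found by Prmt5 thus had mean Pol III coverage of 186.1, 32.1 and 0.763 at its 3 places.

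H3K4-titled coverage at the copy near Btn1a1 was 5.23 and 8.31, above the 1.15 and 0.724 by Prmt5, a gene chosen for having little of it. At the copy near Btn2a2 both H3K4-titled libraries had 0 reads, which allow a coverage of up to 0.611. The copy of the gene by Sacm1l was lower than that gene in H3K4-titled coverage, as it was in Pol III. RPB2 coverage was 0 and 0.408 at the copy near Btn2a2, and 1.27 and 1.61 at the copy near Btn1a1. Reads of 76 bp that reach past the gene can tell most copies apart: an exact match of at least 76 bp elsewhere was found once for the stretch by Sacm1l and not for those by Prmt5 and Polg. Fractional coverage, which marks reads shared among places, was seen at 20.1% of the bases by Sacm1l in RPC1 replicate 2 and RPB2 replicate 1 and nowhere else at the 3 genes. How reads with several matches were treated is not given in the sources used here.

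Among the 16 regions with only tRNA-Arg genes the 3 genes ranked 1 (Sacm1l), 2 (Polg) and 3 (Prmt5) by Pol III, the measure they were chosen by. The other 13 ran from 1.15 to 168.6 reads per base with a median of 75.96. By RPB2 they ranked 1, 7 and 8, and by H3K4-titled coverage 3, 6 and 11. The other ACG genes, 4 in number, had Pol III coverage of 0.763 to 66.5 and the other TCG genes, also 4, had 6.74 to 127.6. The next highest after the 3 was a CCG gene on chromosome 11 (chr11:106874030-106874402, 13361 bp from the start of Kpna2) with 168.6 ± 46.5 (SD, n = 4). Its RPB2 coverage was 32.5 ± 2.25 (SD, n = 2), between those by Sacm1l and by Polg, although no coding start lay near. Then came a region on the same chromosome with 3 tRNA-Arg genes, 4926 bp from the start of Atp5h. That region had 138.0 ± 35.98 (SD, n = 4) for Pol III and 27.7 ± 6.75 (SD, n = 2) for H3K4-titled coverage.

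At the lower end stood a TCT gene on chromosome 1, 22670 bp from the start of Cadm3, with Pol III at 1.45 ± 0.591 (SD, n = 4). Lowest was a CCT gene on chromosome X, 85674 bp from the start of Rps6ka6, with 1.15 ± 0.380 (SD, n = 4). The CCT gene fell below the filter on low coverage and was not tested. Of the 12 other tRNA-Arg regions tested, 7 were called higher in RPB2 than in input and 0 lower, with a median log2 difference of 2.30. All 397 regions had a median of 0.95 with 160 called higher (40.3%) and 1 lower (0.252%). Pol II above input was thus not limited to the 3 genes among tRNA-Arg genes. For H3K36-titled coverage 1 of these 12 was called higher and 1 lower, with a median of -0.80 against -0.47 over all regions, of which 16 were higher (4.03%) and 34 lower (8.56%).

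**Figure D5:**
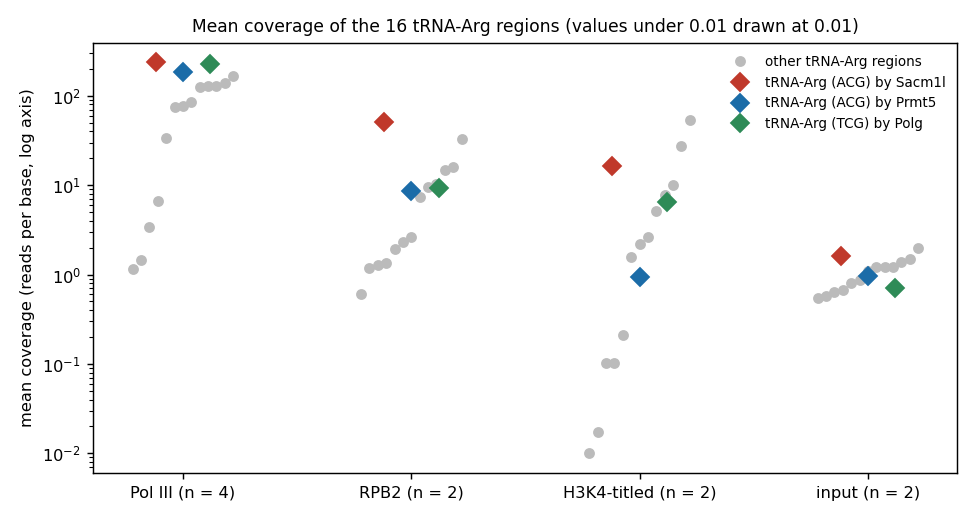
Mean coverage (reads per base, log axis) of the 16 regions with only tRNA-Arg genes in Pol III (n = 4), RPB2, H3K4-titled and input libraries (n = 2 each); diamonds are the genes by Sacm1l, Prmt5 and Polg, grey points the other 13, and values under 0.01 are drawn at 0.01. The 3 diamonds lie together at the top for Pol III, by which they were chosen, and spread apart for RPB2 (50.4 to 8.56) and H3K4-titled coverage (16.3 to 0.937).

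Other tRNA genes also lie near coding starts. In all, 21 predicted tRNA genes in 20 regions lay within 450 bp of a coding start, of which 12 were divergent from the coding gene, 8 on its strand and 1 convergent. Among these 20 regions the genes by Sacm1l, Polg and Prmt5 ranked 1, 3 and 5 by Pol III, 1, 9 and 10 by RPB2, and 8, 14 and 17 by H3K4-titled coverage. The 17 others had a median Pol III coverage of 86.1 (0.165 to 235.9), a median RPB2 coverage of 6.34 (0.204 to 32.3) and a median H3K4-titled coverage of 13.5 (0.204 to 89.0). H3K4-titled coverage by Polg and Prmt5 therefore lay below that median and by Sacm1l above it. Of the 16 others tested, 14 were called higher in RPB2 than in input, with a median log2 difference of 2.58, against 40.3% of all regions. Of the 3 regions of the 20 with less H3K4-titled coverage than the gene by Prmt5, the highest Pol III coverage was 24.8, at a tRNA-Pro (AGG) gene near Opn1sw that was picked out after its values were seen.

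Over all 12 libraries, the regions most like each gene were found by the Euclidean distance of their log2 values. For the gene by Sacm1l the first was a tRNA-Glu (TTC) gene 41918 bp from the start of Nufip1 (distance 2.47). Then came a tRNA-Ser (GCT) gene 329 bp from Casc5 (2.51) and the tRNA-Arg region 4926 bp from Atp5h (3.28). The median region lay at 13.2. For the gene by Polg the nearest were the same tRNA-Ser gene (2.71) and a tRNA-Thr (TGT) gene 14851 bp from the start of Trim7 (2.96). The same tRNA-Glu gene followed (2.97), with a median of 11.5. For the gene by Prmt5 the nearest were a region without a predicted tRNA gene 306 bp from Ilf2 (3.23) and another 439 bp from Ccdc107 (3.35). A tRNA-Asn (GTT) gene 36021 bp from the start of Alox5ap followed (3.46), with a median of 10.1. The region near Ilf2 had Pol III coverage of 158.1, RPB2 coverage of 6.52 and H3K4-titled coverage of 1.08, and so resembled the gene by Prmt5 in all 3. None of the 3 tRNA-Arg genes was among the nearest of another: the gene by Prmt5 ranked 86 from the gene by Sacm1l and 68 from the gene by Polg, and the gene by Polg ranked 22 from the gene by Sacm1l.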

How the data were processed

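ChIP-seq coverage was used as deposited. It is a signal in reads per base over the same stretches in each of 12 libraries, and its values show no scaling for depth, since a lone read adds 1.0 over 76 bp. The build is mm9, per the submitters' processing notes, and the aligner is not given in the sources used here. Read equivalents are coverage sums divided by 76. Nothing records which animals a library came from, so p-values measure only the spread between libraries, which may be technical. The full depth of each library is unknown.

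tRNA genes were found by a cloverleaf search requiring at least 17 base pairs in 4 stems. In stretches longer than 420 bp at least 19 were required and introns were not allowed. Of 434 stretches with room for 1 gene, 363 had a cloverleaf. Whether the others hold tRNA genes that the search missed was not tested, so counts and ranks cover predicted genes only. Regions were tested with limma 3.58.1 in R 4.3.3 on log2(scaled coverage + 0.354), fitting the 12 libraries together with a trend of variance on mean and 6 residual degrees of freedom. Two-sided p-values were adjusted by Benjamini-Hochberg, and 0.05 was the threshold. Libraries were scaled by a trimmed mean (0.1 from each end) of the 25% of regions where Pol III coverage was lowest. Regions under the 0.1 quantile were left out, leaving 397. Fold changes of low regions are understated on this scale. Lean was tested the same way without trend, on stretches with at least 5 reads over both flanks in each group compared. Functions were tested on simulated data. Counting intervals are exact Poisson or binomial intervals at 95% (scipy 1.17.1) on rounded read equivalents, and matches elsewhere were sought with blastn 2.17.0.

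Named regions are the 3 genes, the 2 highest and 2 lowest other tRNA-Arg regions by Pol III, identical copies, those next to the distance threshold, and the 3 nearest in pattern to each gene. The genes and lists were chosen with earlier results of these data known. Other scalings, pseudocounts, filters, flank widths, sets of libraries, single stretches, a replicate block and leaving out each library were tried. A stretch on chromosome X whose ends differed among the 5 files listing it was left out.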

Additional observations from a re-analysis of the deposited data

How the results depend on the processing

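For RPB2 against input 161 of 397 regions were called, and 49 with median-of-ratios scaling. For H3K36-titled against input 50 were called, 126 with file totals, 288 with coverage as deposited, 33 with the pseudocount doubled and 22 to 71 with single replicates left out (22 without input replicate 1). RPC1 against RPC4 gave 0 called in level and 5 in a fit of only their libraries. In lean, RPB2 against Pol III gave 30 called, 52 with the pseudocount doubled, 54 with only the contrast's libraries and 7 to 28 with single replicates left out (7 without RPB2 replicate 2, 14 without RPC4 replicate 2, 16 without RPC1 replicate 1, 19 without RPC4 replicate 1). RPC1 against RPC4 in lean gave 0, 82 with the pseudocount doubled, 138 with only their libraries and 0 to 56 with single replicates left out (56 without RPC4 replicate 1). The sign turned for H3K36-titled against input by Polg with the pseudocount doubled (0.0298) and ranged from -1.58 to 1.38 with single replicates left out. It turned for RPC1 against RPC4 by Sacm1l with file totals (0.14) and median-of-ratios scaling (0.15), with a range of -0.291 to 0.0249 over left-out replicates. By Polg it turned with coverage as deposited (-0.39), with a range of -0.20 to 0.22. None of these was called, and the cause was not tested. No pairing of libraries by replicate number was seen: of 15 pairs of groups 0 had a correlation of replicate differences over 0.1 (-0.0953 to 0.0981). Such correlations cannot show whether libraries of the same number shared mice or a collection time. With a replicate block 163 regions were called for RPB2 and 53 for H3K36-titled against input, 0 and 30 for the contrasts of RPC1 with RPC4 in level and of RPB2 with Pol III in lean, and no call at the 3 genes changed. Depth limits the H3K36-titled values most, at a median of 1.80 and 1.16 reads per region.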
